A study of Mus musculus with 1 sample.

Results

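Genes of the major histocompatibility complex (MHC) and of antigen presentation were examined in mixed glia cultured from the mouse ventral midbrain (VM). Members were every gene whose symbol starts with H2-, together with B2m, Cd74, Ciita, Tap1, Tap2, Tapbp, Tapbpl, Erap1, Calr, Canx, Pdia3 and Cd1d1. This rule gave 55 of the 23282 genes in the table. Of these, 32 were class I heavy chain genes, 10 were class II chain genes, 9 were the class I light chain and loading factors, 2 were the class II invariant chain and activator, and 2 were others. The study concerned the kinase SGK1 and its inhibitor in glia. A single control library of RNA-seq (1 sample) was analysed, from pups of the ICR(CD-1) outbred stock at postnatal day 5, whose column was named for the vehicle DMSO. Glia given the inhibitor were not analysed here, so no contrast between groups was made. With 1 library, no value below carries a replicate error and no test was run.

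MHC class I molecules consist of a heavy chain and the light chain beta 2 microglobulin, and present peptides made by the proteasome to CD8 T cells. Class II molecules are pairs of an alpha and a beta chain that present endosomal peptides to CD4 T cells, and their genes are switched on by the transactivator Ciita. In the brain, class II is known as a marker of activated microglia and of border macrophages, and class I can be induced in microglia, astrocytes and neurons, in particular by interferon gamma.

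The values were normalised read counts. Their sum over all genes was 27569507. A gene at 10 or more was called detected. Values, and sums, medians and ratios of them, are not scaled for length unless this is stated, so they also depend on gene length. The length-scaled level, given where named, is the value per 1000000 of the sum and per kb of annotated exon. The median length-scaled level of detected genes was 3.75. Of the 55 members, 38 (69.1%) were detected, against 67.2% of all genes, so the share over all members was near the background. The shares differed between the classes. All 9 class I partners were detected, as were 22 of 32 class I heavy chains (68.8%), but 4 of 10 class II chains (40.0%) and 0 of 5 classical class II chains. In this bulk sample, fewer cells of a type and less RNA per cell cannot be told apart. The members held 0.764% of the summed values. The chaperones Calr, Canx and Pdia3, which serve many other proteins of the endoplasmic reticulum, made up 59.7% of this share and B2m made up 14.6%.

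**Figure D1:**
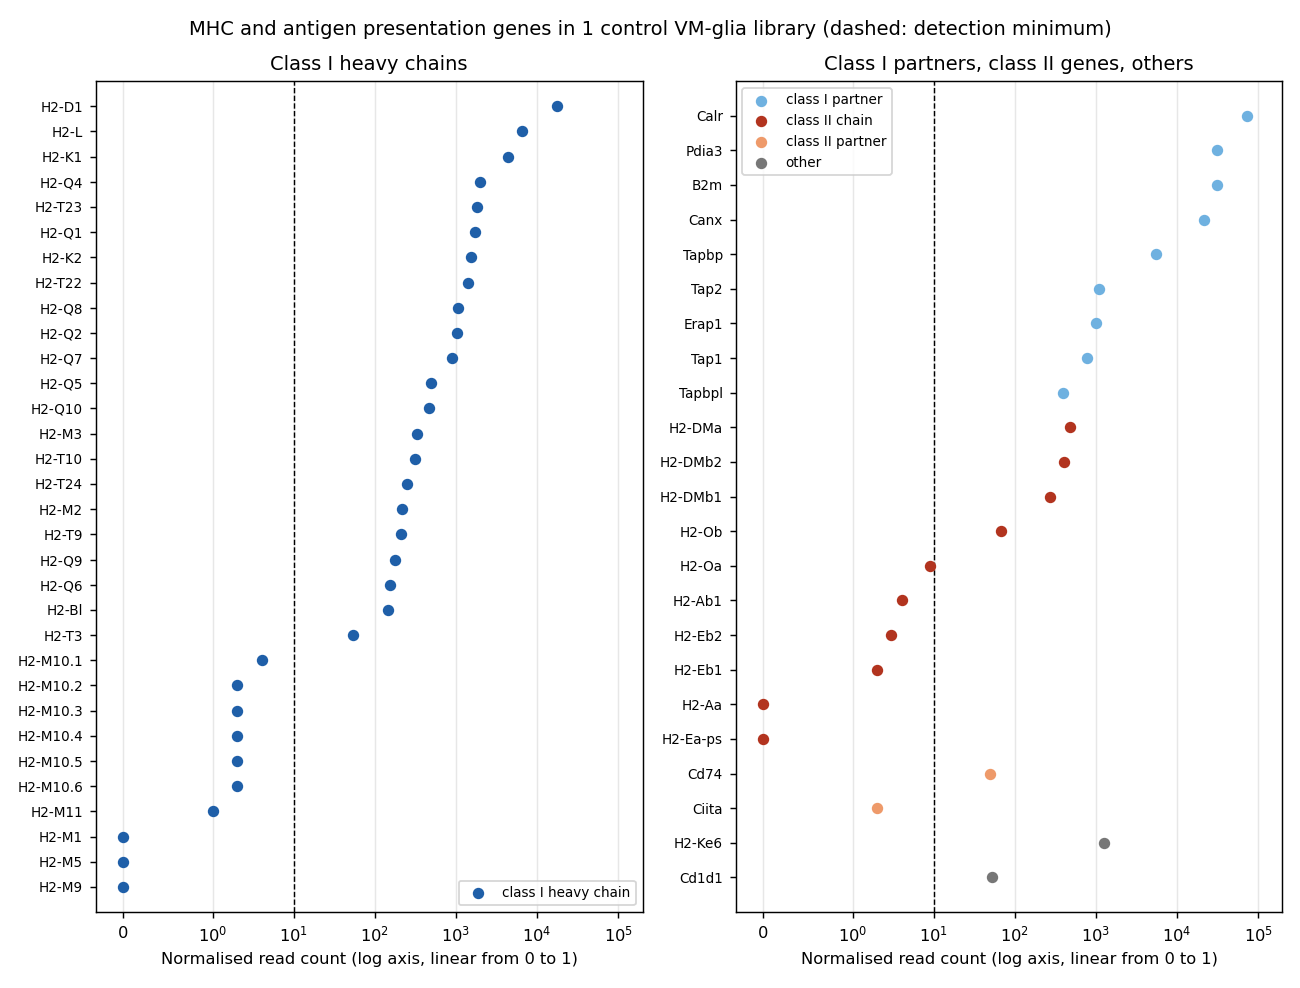
Normalised read counts of the 55 members in the control library (log axis, linear from 0 to 1), with each point 1 gene coloured by class and the detection minimum of 10 dashed. Class I heavy chains run from 0 to 17724, and the 5 classical class II chains lie between 0 and 4.

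Among class I heavy chains, the classical (class Ia) genes, which present peptide to CD8 T cells, had the highest values. H2-D1 (chromosome 17, 35262730 to 35267499 in GRCm38, plus strand) was at 17724, or 41.4% of the values of all heavy chains. Its length-scaled level of 249 was above 98.6% of detected genes. H2-K1 (chromosome 17, 33996017 to 34000347, minus strand) was at 4324, and its length-scaled level of 53.4 was above 93.7% of detected genes. The level of H2-D1 was thus 4.67 times that of H2-K1 per exon length. The ratio was 3.16 per length of the longest coding transcript, which is 1619 of the 2938 exon bases of H2-K1 and 2102 of the 2579 of H2-D1. H2-L was at 6577, but the annotation used for lengths and positions has no gene of this symbol, so it has no length-scaled level. Whether the value listed for H2-L came from a separate gene was not tested, because its transcripts could not be compared with those of other genes. With H2-L counted, these 3 symbols held 66.8% of the heavy chain values, and H2-L held 15.4%. The promoters of H2-D1 (chr17:35262844-35263093, plus strand) and of the light chain gene B2m (chr2:122147437-122147686, plus strand) are shown because they belong to the partners of the class I molecule with the highest values. Each line gives the 250 bases before the start of transcription from RefSeq on GRCm38.p6, 5′ to 3′ on the strand of the gene, and capitals mark the motifs described further on.
H2-D1: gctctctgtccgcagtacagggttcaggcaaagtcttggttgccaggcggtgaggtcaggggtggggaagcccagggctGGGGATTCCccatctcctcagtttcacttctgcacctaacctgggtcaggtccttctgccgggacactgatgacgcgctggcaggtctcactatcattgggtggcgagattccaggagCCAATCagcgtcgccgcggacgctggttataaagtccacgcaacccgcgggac
B2m: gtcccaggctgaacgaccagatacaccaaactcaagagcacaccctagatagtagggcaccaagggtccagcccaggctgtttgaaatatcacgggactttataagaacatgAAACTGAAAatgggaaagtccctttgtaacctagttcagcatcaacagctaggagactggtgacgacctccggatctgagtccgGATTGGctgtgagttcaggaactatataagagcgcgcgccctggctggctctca

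Nonclassical (class Ib) heavy chains were lower and varied by genomic region. All 9 H2-Q genes were detected, with values from 152 to 1991 and a median of 882. H2-Q4 was highest at 1991, followed by H2-Q1 at 1710, H2-Q8 at 1063 and H2-Q2 at 1024. H2-Q7 and H2-Q9, which encode the Qa-2 antigen, were at 882 and 179. H2-Q5 was at 495 and H2-Q6 at 152, and H2-Q10, known as a secreted class I molecule of the liver, was at 465. The 6 H2-T genes were also detected. H2-T23, which encodes Qa-1, the ligand of the inhibitory NKG2A receptor of natural killer cells, was at 1809, with a length-scaled level of 22.7. H2-T22 was at 1402 and H2-T10 at 313, both of which are known as ligands of gamma delta T cells. H2-T24 was at 248, H2-T9 at 211 and H2-T3, which encodes the thymus leukemia antigen, at 53. The pseudogene H2-K2 was at 1515 and H2-Bl at 143. H2-Bl, H2-Q5 and H2-T10 are annotated as polymorphic pseudogenes. These 4 heavy chains, all detected, summed to 2466 and are counted with class I throughout. Of the 24 heavy chains annotated as protein-coding 14 were detected (58.3%), against 67.2% of all genes. The 4 heavy chains without an annotated gene were all detected.

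The H2-M genes contrasted with the rest of class I. Only H2-M3 at 334 and H2-M2 at 216 were detected among the 12 of them, and H2-M3 is known for presenting formylated bacterial peptides. The 6 genes of the H2-M10 cluster, known from sensory neurons of the vomeronasal organ, were at 4 for H2-M10.1 and at 2 for each of the others. H2-M11 was at 1, and H2-M1, H2-M5 and H2-M9 were listed at 0. The 10 class I heavy chains under the detection minimum were therefore all H2-M genes. Over the 20 heavy chains outside this family the lowest value was 53 and the median 953. In terms of value, 10 heavy chains were at 1000 or more, another 11 at 100 or more, and 1 more at 10 or above.

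Class I genes resemble each other in sequence, so reads can be shared between them. Annotated coding transcripts, or all transcripts where a gene has no coding ones, were therefore cut into all windows of 100 bases. Each window was searched in the transcripts of every other annotated gene on both strands. Among the 28 heavy chains with an annotated gene, the share of windows found in no other gene ran from 82.8% for H2-Q7 to 100%, with 16 genes at 100%. H2-D1 had 95.9% unique windows and H2-K1 100%, over their coding transcripts. Yet 10 windows of H2-Q5 were also in H2-K1, in transcripts of H2-K1 that were not cut. Of the windows of H2-Q5, 170 were also in H2-Q7. H2-Q6 and H2-Q7 shared 166 windows, H2-T10 and H2-T22 shared 163, and H2-Q1 and H2-Q2 shared 106. The genes at 100% included all 12 H2-M genes and also H2-K1. Transcripts of H2-L, H2-Q8, H2-Q9 and H2-T9 could not be compared in this way. How the authors placed reads that match several genes was not stated, so the division of values among heavy chains that share windows is uncertain. This holds for the H2-Q genes, H2-T10, H2-T22, H2-T23, H2-K1, H2-K2 and H2-D1. H2-D1 shared 85 windows with H2-Q1 and 46 with H2-T23, and H2-T23 shared 61 with Gm7030 and 47 with Gm11127. Gm7030, at 468, and Gm11127, at 1221, are not members. Windows shared with H2-L could not be seen, so the division between H2-D1 and H2-L is uncertain too. Exons of H2-Q4, H2-T10 and H2-T22 also overlap exons of opposite-strand genes, over 19.1%, 27.1% and 29.4% of their bases.

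**Figure D2:**
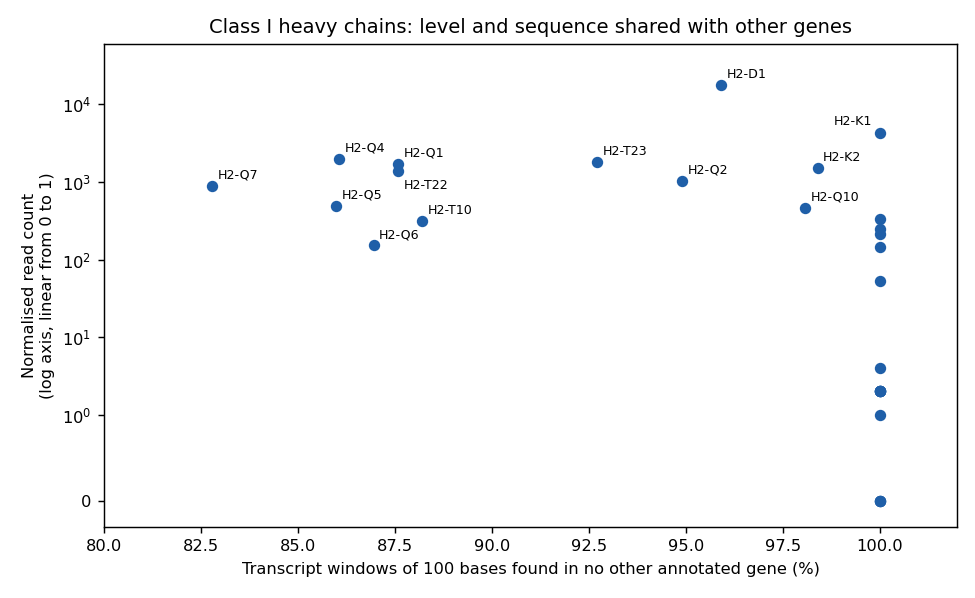
Normalised read count (log axis, linear from 0 to 1) of the 28 annotated class I heavy chains against the percentage of their 100-base transcript windows found in no other annotated gene. The H2-Q genes lie between 82.8% and 98.1%, and the 10 genes under the detection minimum are all at 100%.

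The light chain and the loading machinery of class I were detected throughout. B2m (chromosome 2, 122147686 to 122153083, plus strand) was at 30773, and its length-scaled level of 1298 was the highest of all members and above 99.8% of detected genes. It was 2.65 times the summed length-scaled level of the 28 annotated heavy chains, which was 489. The peptide transporter subunits Tap1 and Tap2 were at 772 and 1092, and their length-scaled levels were above 57.0% and 73.1% of detected genes. Tapasin (Tapbp), which bridges the transporter and the heavy chain, was at 5555 (length-scaled level 55.5), and its relative Tapbpl, a peptide editor, was at 397 (6.12). The trimming peptidase Erap1 was at 1001 (4.99). Among the chaperones, calreticulin (Calr) was at 72878, the disulfide isomerase Pdia3 at 31246 and calnexin (Canx) at 21622, each above at least 97.9% of detected genes by length-scaled level. Tap1 and Erap1 were thus close to the middle of detected genes and Tap2 was higher, while B2m, tapasin and the chaperones were near the top. Exons of Tapbp overlap opposite-strand exons over 24.9% of their bases and those of Erap1 over 11.5%. Exons of Tap2 overlap those of an opposite-strand gene over 14.1% of their bases and those of another over 4.36%.

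Class II chains differed by role, with presenting chains near 0 and peptide-exchange chains detected. H2-Ab1 was at 4, H2-Eb2 at 3 and H2-Eb1 at 2, and H2-Aa and H2-Ea-ps were listed at 0, so their values summed to 9. H2-Ea-ps is a pseudogene in the C57BL/6 reference genome. The chains of H2-DM, the molecule that exchanges peptides on class II in endosomes, were detected. H2-DMa was at 475, H2-DMb2 at 404 and H2-DMb1 at 269, with length-scaled levels of 5.00, 8.39 and 5.80. These lay above 56.5%, 68.5% and 60.0% of detected genes, respectively, and the 3 genes held 93.1% of all class II chain values. The chains of H2-DO, which inhibits H2-DM, were lower, with H2-Ob at 67 and H2-Oa at 9, just under the minimum. Cd74, the invariant chain that guides class II to endosomes, was at 49, and its length-scaled level of 1.06 was above 25.3% of detected genes. Ciita was at 2. H2-DMa exons overlap those of Brd2 on the opposite strand over 360 of 3448 bases, and Brd2 was at 8768. H2-DMb1 and H2-DMb2 shared 179 of their 100-base windows, but 86.3% and 89.7% of their windows were unique. The promoters of an undetected alpha chain, an undetected beta chain and a detected DM chain are shown beside their different levels. They are those of H2-Aa (chr17:34287824-34288073, minus strand), H2-Eb1 (chr17:34305617-34305866, plus strand) and H2-DMb1 (chr17:34152941-34153190, plus strand), in the same format. All 3 have the Y box core described further on, but only H2-Eb1 and H2-DMb1 also have an exact X box core.
H2-Aa: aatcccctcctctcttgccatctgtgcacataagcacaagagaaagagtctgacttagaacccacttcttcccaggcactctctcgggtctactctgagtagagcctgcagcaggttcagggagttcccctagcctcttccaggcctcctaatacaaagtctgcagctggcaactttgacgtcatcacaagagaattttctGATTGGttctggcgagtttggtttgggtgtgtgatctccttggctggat
H2-Eb1: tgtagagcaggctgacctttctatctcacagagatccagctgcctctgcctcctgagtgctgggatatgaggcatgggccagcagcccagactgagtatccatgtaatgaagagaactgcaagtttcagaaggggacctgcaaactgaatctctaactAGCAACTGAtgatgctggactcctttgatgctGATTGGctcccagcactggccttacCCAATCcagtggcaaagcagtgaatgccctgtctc
H2-DMb1: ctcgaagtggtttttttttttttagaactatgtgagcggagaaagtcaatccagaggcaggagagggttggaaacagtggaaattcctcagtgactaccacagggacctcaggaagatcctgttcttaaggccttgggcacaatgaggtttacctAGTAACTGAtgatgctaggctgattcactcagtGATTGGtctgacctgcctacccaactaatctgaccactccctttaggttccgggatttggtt

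Class I was compared with class II by summed values. The 32 heavy chains summed to 42845 and the 10 class II chains to 1233, a ratio of 34.7. Over the 28 heavy chains with an annotated gene, which leaves out H2-L, H2-Q8, H2-Q9 and H2-T9, the ratio was 28.2, and per exon length it was 24.5. The class II sum was almost wholly H2-DM, since classical chains made up 0.730% of it. Over detected genes the class I median exceeded the class II median by 0.98 on the log2(value per 1000000 of the sum + 1) scale, which understates differences of low genes. Over all members, undetected ones included, the same difference was 2.93. The gap was larger with the undetected members counted, which were 6 of 10 for class II and 10 of 32 for class I. Partner chains differed in the same direction, with B2m at a length-scaled level of 1298 and Cd74 at 1.06.

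**Figure D3:**
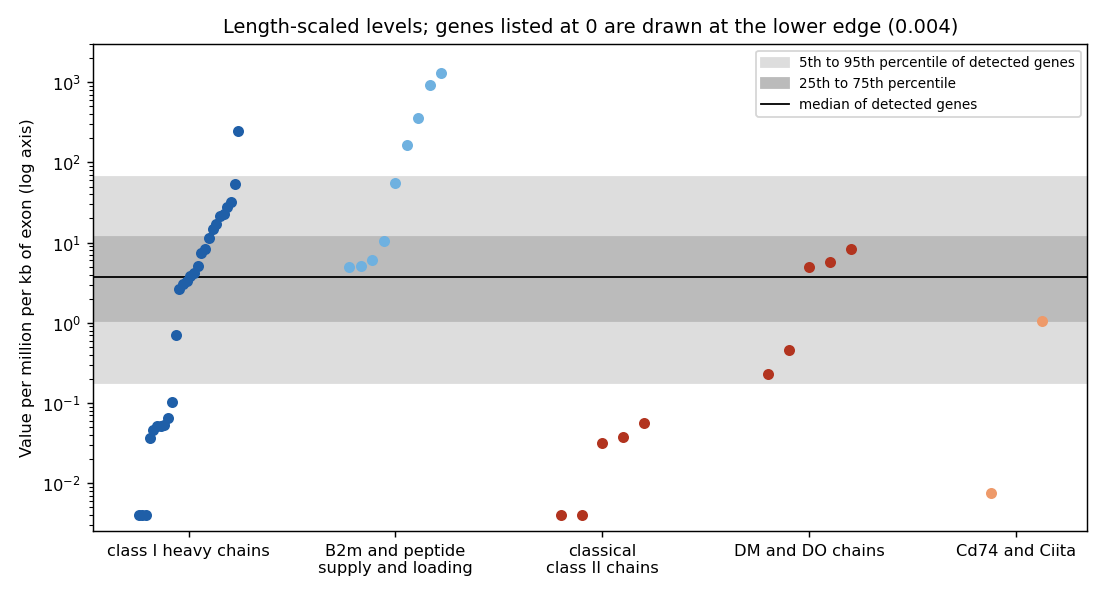
Length-scaled level (value per 1000000 of the sum and per kb of exon, log axis) of members by class, over shaded bands for the percentiles of all detected genes; genes listed at 0 are drawn at 0.004. Classical class II chains lie at or below 0.0565, under the 5th to 95th percentile band, while H2-DMa, H2-DMb1 and H2-DMb2 lie between 5.00 and 8.39.

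Promoter letters were compared between the classes. RefSeq gave a promoter for 22 class I heavy chains, 7 class I partners, 8 class II chains and 1 other member. In the 250 bases before the start, 4 short motifs were searched on both strands. Matches had to be exact, with N for any base, so near matches were not counted and a gene without a match may still have a related site. In the members no match of a motif overlapped that of another. The Y box core GATTGG, the CCAAT element bound by NF-Y, occurred in 8 of 8 class II chains and 16 of 22 class I heavy chains, against 14.6% of 32851 promoters. Its orientation differed, in that all 8 class II chains had GATTGG on the strand of the gene and all 16 class I heavy chains had its reverse complement. Of the 7 class I partners 4 had a match, B2m on the strand of the gene and the other 3 in reverse. A gene was counted if any of its promoters matched, and H2-DMa and H2-K1 each also had a promoter without a match. The genes in both orientations were H2-Eb1 and H2-T22. The X box core AGNAACNGA, bound by the RFX complex, was found in H2-Eb1, H2-Eb2 and H2-DMb1, 32 or 33 bases before the Y box, and in 4.42% of all promoters. A class I kappa B motif, GGGGATTCC, was found in H2-D1, H2-K1, H2-Q6 and H2-Q7, and in 0.213% of all promoters. The interferon response core AAANNGAAA was found in B2m, H2-DMa, H2-M11, H2-T3, H2-T22 and H2-T23, and in 9.37% of all promoters. The match in H2-DMa, TTTCTTTTT, lay in a run of T in 1 of its promoters and was absent from its other promoter. H2-D1, H2-K1, H2-Q4, H2-Q6, H2-Q7, H2-Q10 and H2-M3 had TTTCACTTC. This differs from the reverse complement of the interferon response core by 1 letter and was not counted. Genes with the same motif differed in level. Of the 16 class I heavy chains with a Y box core, 7 were detected and 9 were not, against 67.2% of all genes detected. These 9 were all H2-M genes. Of the heavy chains with a promoter but no match, H2-Q2, H2-Q10, H2-M2, H2-M3 and H2-T3 were detected and H2-M5 was not. H2-Eb1 at 2 and H2-DMb1 at 269 both matched the X box core, as AGCAACTGA and AGTAACTGA, and the Y box core.

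The MHC interval on chromosome 17, from the first to the last annotated H2 gene (33974659 to 37483552), held 180 genes of the table, and 41 of them were members. Of the 41 members in this interval 25 were detected, and of the other 139 genes 93 (66.9%), against 67.2% of all genes. The share of members was thus below both. The other 139 genes had a median value of 162. The class II chains lay on both sides of detected genes. Between H2-Oa at 9 and H2-Ea-ps at 0 were Brd2 at 8768, the 3 DM genes, Psmb9 at 162, Tap1 at 772, Psmb8 at 1889 and Tap2 at 1092, and beyond H2-Ob at 67 the 5 classical genes followed each other. After H2-Ea-ps, the 7 genes before the next one at 100 or more were also low, with 5 listed at 0 and the other 2 at 29 and 46. The 10 undetected H2-M genes all lay between H2-T3 and H2-M3. The 5 highest genes of the interval that were not members were Clic1 at 11618, Tubb5 at 9962, Brd2 at 8768, Bag6 at 7591 and Abcf1 at 7578.

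**Figure D4:**
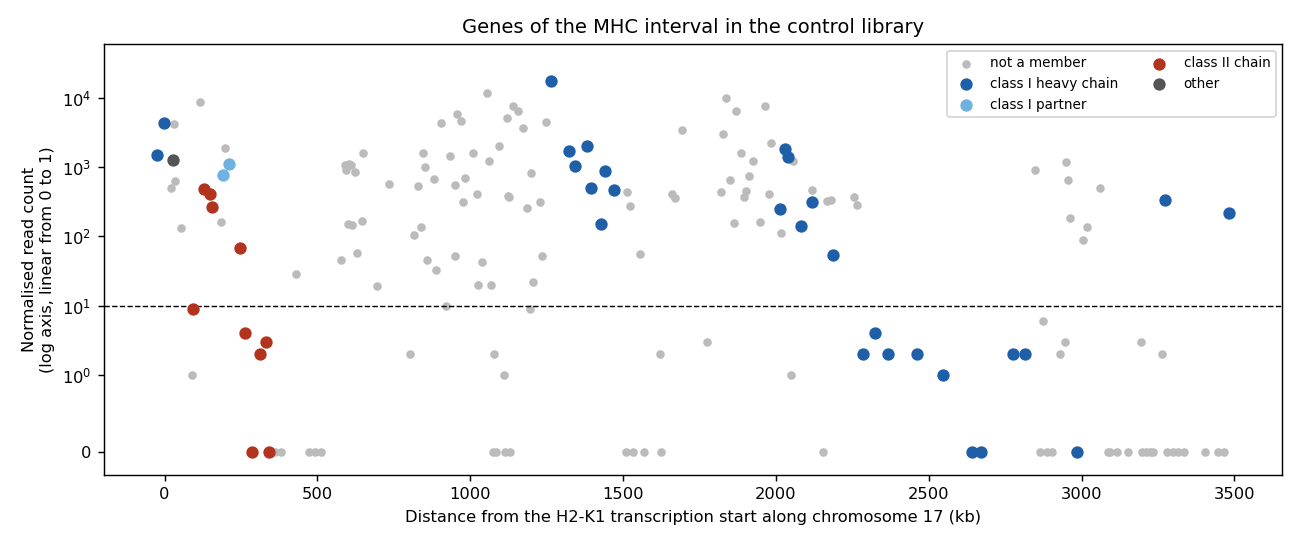
Normalised read count (log axis, linear from 0 to 1) of the 180 genes of the MHC interval against their distance from the H2-K1 transcription start in kb, with members coloured by class and other genes grey. The classical class II chains and a run of H2-M genes fall below the dashed detection minimum of 10, and H2-D1 at 17724 is the highest point.

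Genes that feed or control these pathways were described by lists. For class I, all 5 inducible proteasome genes were detected, with the activator subunits Psme1 at 9284 and Psme2 at 4100 and the catalytic subunits Psmb8 at 1889, Psmb10 at 1076 and Psmb9 at 162. Their constitutive counterparts Psmb6, Psmb7 and Psmb5 were at 6648, 3074 and 1193. Per exon length, inducible Psmb9 was at 1.61 and its constitutive counterpart Psmb6 at 129. Inducible Psmb8 was at 20.3 and its counterpart Psmb5 at 48.1, and inducible Psmb10 was at 22.9 and its counterpart Psmb7 at 32.6, the closest pair. Exons of Psmb9 and Tap1 overlap on opposite strands. All 6 class I regulators were detected, including the class I transactivator Nlrc5 at 357 and Irf1 at 484. The interferon gamma receptor genes Ifngr1 and Ifngr2 were at 2631 and 4451, Jak1 at 4810, Jak2 at 1403 and the feedback inhibitor Socs1 at 56, while Ifng itself was listed at 0. All 7 genes of the class II enhanceosome, the complex on the X and Y boxes that recruits Ciita, were detected, from Rfx5 at 284 to Nfya at 1438. Their cofactor Ciita, at 2, was not. All 7 genes of endosomal proteolysis were detected, with Ctss, the protease that trims the invariant chain, at 73268 and the thiol reductase Ifi30 at 4457. The ubiquitin ligases March1 and March8, which remove class II from the surface, were at 244 and 1032.

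**Figure D5:**
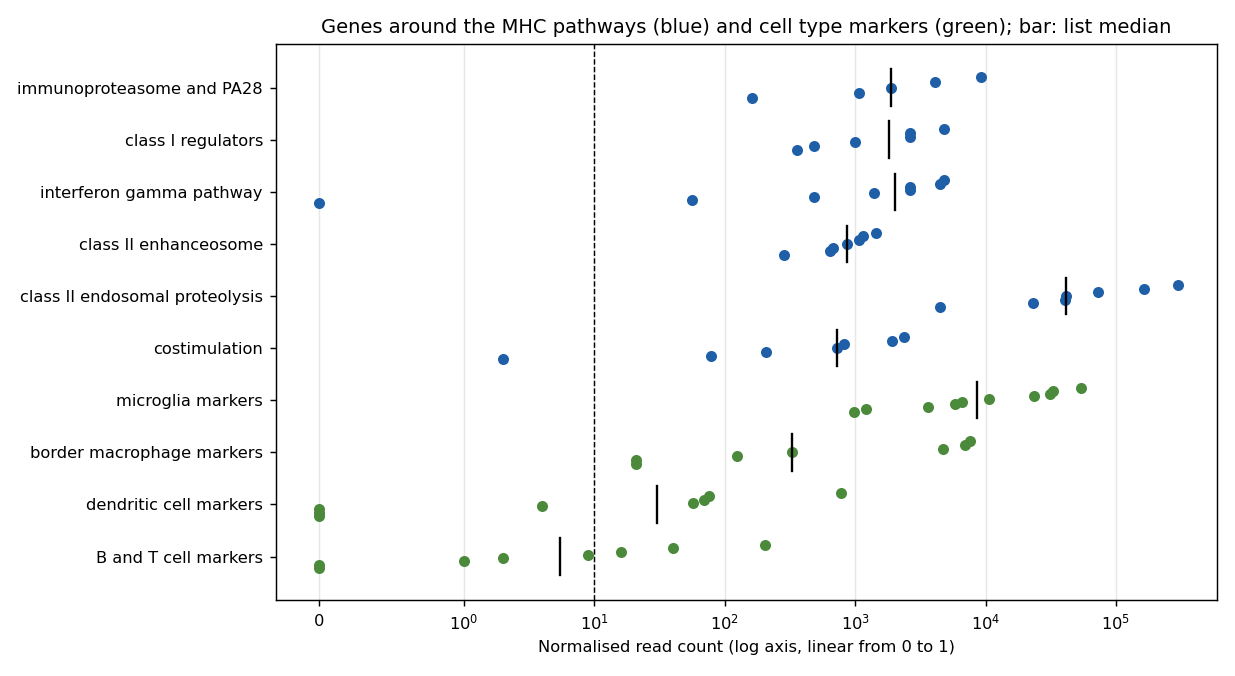
Normalised read counts (log axis, linear from 0 to 1) of genes around the MHC pathways (blue) and of cell type markers (green), each point 1 gene, with bars for list medians and the detection minimum dashed. Enhanceosome genes lie between 284 and 1438, and the median of endosomal proteolysis is 41070.

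Markers of the cells that could carry these genes were read beside them. All 10 microglia markers were detected (984 to 53801, median 8549.5), as were 7 of 8 astrocyte markers (median 2966.5) and 6 of 6 mesenchymal markers (median 5816.5). Border macrophage markers were detected in 7 of 7 cases, with Ms4a7 at 7582 and Mrc1 at 7012, but Cd163 and Lyve1 were at 21 each. Of 8 dendritic cell markers 4 were detected, Itgax highest at 772, and Clec9a, Cd209a and Ccr7 were listed at 0. Of 8 B and T cell markers 3 were detected, with Cd3d at 202, Cd4 at 40 and Ms4a1 at 16, and Pax5 was listed at 0. Which cells carried the class I or DM transcripts was not tested.

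The members outside both classes differed from each other. Cd1d1, which presents lipids to natural killer T cells, was at 53 and its length-scaled level of 0.748 was above 20.1% of detected genes. It shared 269 windows with its paralog Cd1d2, which was at 13. H2-Ke6 carries the H2 prefix for its place in the complex and encodes a hydroxysteroid dehydrogenase. It was at 1247, and 86.4% of its exon bases overlap an annotated same-strand gene.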

How the data were processed

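Total RNA of VM-derived mixed glia was extracted with Trizol and sequenced from a SMARTer mRNA library. According to the study's methods, reads were trimmed at a quality of 20, mapped to GRCm38/mm10 with STAR and counted on exons of RefSeq Release 105 with HTSeq-count, and FPKM were then calculated. The submitters' processing notes name TopHat and edgeR instead. The deposited values were whole numbers that the authors called normalised read counts, and they were treated here as a score, since they are not raw reads. The kind of normalisation, the strand setting, the handling of multi-mapped reads and the sequenced depth were not given in the sources used here, so no interval or floor is given. The MHC haplotypes of the outbred animals were not given either, and reads were mapped to the C57BL/6 sequence. How this affected values was not tested.

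The library was placed in the control group by its title, and rows were used as deposited. Positions, exon unions and transcripts came from GENCODE release M21 (GRCm38), matched by symbol for 22132 rows (95.1%) and 51 of 55 members. Promoters came from RefSeq on GRCm38.p6. The members and lists were chosen with earlier results of these data known. Members at 10 or more are named with their values, lists of up to 9 genes may be named in full, and longer lists by their 3 highest genes, the lowest and those at 0. H2-Bl is given apart from the H2-Q genes, with which the list had placed it, because the annotation puts it between H2-T22 and H2-T10. Percentiles are shares of detected genes with a lower value. Values of some listed genes are not reported here. Functions for percentiles, windows and motifs were tested on simulated data. Alternatives were other minima, length scaling, other member sets, the pseudocount and other totals. Python 3.11.15, numpy 2.4.6, pandas 2.3.3 and matplotlib 3.10.9 were used.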

Additional observations from a re-analysis of the deposited data

How the results depend on the processing

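The library had no replicate, so no value could be repeated without a replicate. No paired analysis was possible because there was 1 library and no test. The number of members detected was 38 at a minimum of 10, 50 at 1, 42 at 3 and 34 at 100, within 1.5 times the first. Listed at 0 were 5 of the 55 members and 5075 of all 23282 genes. Shares over all genes at 3 and 100 were not computed, so the statement that the member share was near the background holds for the minimum of 10 only. The class I over class II ratio of 34.7 was 33.1 without the highest chain of each class, 28.2 over members with most windows unique and 3181 for class Ia over classical class II, a value that rests on a class II sum of 9. Length scaling also drops heavy chains without a length, so unscaled values over the same genes were added after seeing the data, as were coding transcript lengths. Over the 28 heavy chains with an exon length the ratio was 28.2 unscaled and 24.5 scaled, and over the 26 with a coding transcript length it was 26.6 and 23.9. The class I minus class II difference of medians, 0.98 on the log2 scale, was 2.93 over all members, 1.03 with a pseudocount of 0.1 and 0.76 per exon length over the heavy chains with one (0.98 unscaled). Class I was above class II in all of these alternatives. B2m over the sum of all heavy chains was 0.718. Over the 28 it was 0.884 unscaled and 2.65 scaled, and over the 26 it was 0.938 and 2.02, so scaling took it across 1. Cd74 over the class II chain sum was 0.0397 unscaled, 0.0529 per exon length and 0.0470 per coding transcript length. The share of the summed values was 0.764%, 0.783% without Rn45s and 0.883% without the 10 highest genes. The median percentile of detected members was 63.1, 68.6 per exon length (over the members with one, 63.1 by value), 68.3 among genes at 1 or more and 51.9 among genes at 100 or more. Per exon length, 26 of 34 detected members had a higher percentile and 8 a lower one. Since neither depth nor normalisation was known, values under 10 could not be ranked.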

Other observations

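Costimulation and class I-like genes lie outside the member rule. Of 7 costimulation genes 6 were detected. Cd83, a marker of activated antigen-presenting cells, was at 2355, and Cd274, which encodes the inhibitory ligand PD-L1, was at 1921. Cd86 was at 815 and Cd80 at 79, the ligands of CD28, and their length-scaled levels were 8.07 and 0.774. Icosl was at 730, Cd40 at 207 and Pdcd1lg2, which encodes PD-L2, at 2. Costimulatory genes were thus detected in a library with all 5 classical class II chains under 10.

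Among the 6 class I-like molecules outside the complex, 5 were detected. The neonatal Fc receptor gene Fcgrt, whose product also pairs with beta 2 microglobulin, was highest at 2361. The iron regulator Hfe was at 843, Mr1, which presents vitamin metabolites to MAIT cells, at 684 and the protein C receptor gene Procr at 243. Cd1d2 was at 13 and Azgp1 was listed at 0.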
